A study of Mus musculus with 8 samples.

Results

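Hypoxia-inducible factor (HIF) and the genes it is known to induce outside glycolysis form a list of 41 mouse genes, of which 9 build or control HIF and 32 are listed as its induced targets. The genes were taken by name from a list that was drawn up with earlier results of these data known, so counts of members beside all genes are descriptions. Each probe was assigned through its RefSeq accession. The list had 62 probes for 39 genes; Vhl and Lox had no named probe. A gene entered the test when, in every replicate, 50% or more of the arrays had it clearly over background in null or in wild-type RNA, which left 53 probes and 37 members (8 regulators and 29 targets) among 12000 tested genes, of 17305 named on the array. Epo, the red cell hormone, was above background on 0 of 8 arrays in p53 null and in wild-type kidneys. Bhlhe41, a transcriptional repressor of the clock, reached it on 1 of 8 arrays in null and 3 of 8 in wild-type kidneys, so neither gene was tested. Each of the 37 tested members passed the background limit on 8 of 8 arrays in null and in wild-type RNA.

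The RNA came from kidneys of p53 null embryos and from those of p53 wild-type embryos, both on the C57BL/6 strain at embryonic day 15.5, so that the design asks what the loss of p53 changes in the transcripts of the growing organ. Each of 8 arrays carried both genotypes, labelled with 2 dyes, and the reverse labelling was run for every replicate. The labels call the 3 replicates biological; replicate 1 had 4 arrays on slide 1, and replicates 2 and 3 had 2 arrays each on slide 2, scanned separately from slide 1. The null allele, the deleted part of p53 and the number of embryos behind each RNA are not given in the sources used here, so p-values measure the spread between 3 RNA pairs. Unless a level is named, each value is a log2 ratio with null on top, averaged over both dye orientations of a replicate.

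In cells with enough oxygen, prolyl hydroxylases of the Egln family modify the alpha subunits of HIF, which the Vhl ubiquitin ligase then marks for destruction. When oxygen is short, the alpha subunits accumulate, pair with Arnt and bind the core sequences ACGTG or GCGTG near genes for blood vessel growth, glucose use, collagen processing and the removal of mitochondria. The embryonic kidney grows in low oxygen and uses HIF, among other roles, in forming its vessels. Since HIF is set mainly by the stability of its alpha proteins, the transcript levels measured here do not show its activity directly, and Egln1 and Egln3 are themselves known HIF targets.

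The induced targets had lower transcript levels in null than in wild-type kidneys in replicates 2 and 3, and their median lay near 0 in replicate 1. Bnip3, a receptor that directs mitochondria to autophagy, had ratios of 0.12, −3.52 and −3.77 in replicates 1, 2 and 3. Ankrd37, an ankyrin repeat protein, had 0.11, −3.06 and −3.26, and Ddit4, an inhibitor of mTOR signalling that is also known as a p53-induced gene, had −0.18, −3.15 and −3.14. These 3 members sat close to equality on slide 1 and at 8.0%, 11.2% and 11.3% of the wild-type level on slide 2. Over the 29 targets the median ratio was −0.04, −1.50 and −1.60 in the 3 replicates, against −0.08, −0.20 and −0.20 for the 8 regulators and −0.02, 0.02 and 0.03 for all 12000 genes. The targets thus stood apart from the other genes in replicates 2 and 3 and lay among them in replicate 1.

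With all 3 replicates, 0 of 37 members passed an adjusted p of 0.05 (limma with Benjamini-Hochberg adjustment over 20865 probes), as did 0 of all 12000 genes (0%), and the members' adjusted p ran between 0.279 and 0.816. At an unadjusted p under 0.05, 25 members were lower in null kidneys, where 8.93% of all genes were lower, and 0 were higher, where 9.22% of all genes were higher. The sign was negative in all 3 replicates for 20 members (19.7% of all genes) and positive in all 3 for 0 members (20.4% of all genes). Within slide 2 alone, 32 members were called lower (27.1% of all genes) and 1, Egln2, was called higher (32.9% of all genes). The ratio itself differed between slide 2 and slide 1 (adjusted p under 0.05) for 30 members: 29 were lower on slide 2 (19.3% of all genes) and 1, again Egln2, was higher (28.6% of all genes). Slide 1 holds a single replicate, which that test assumes to vary like the others, and slide, scan and replicate cannot be told apart.

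**Figure D1:**
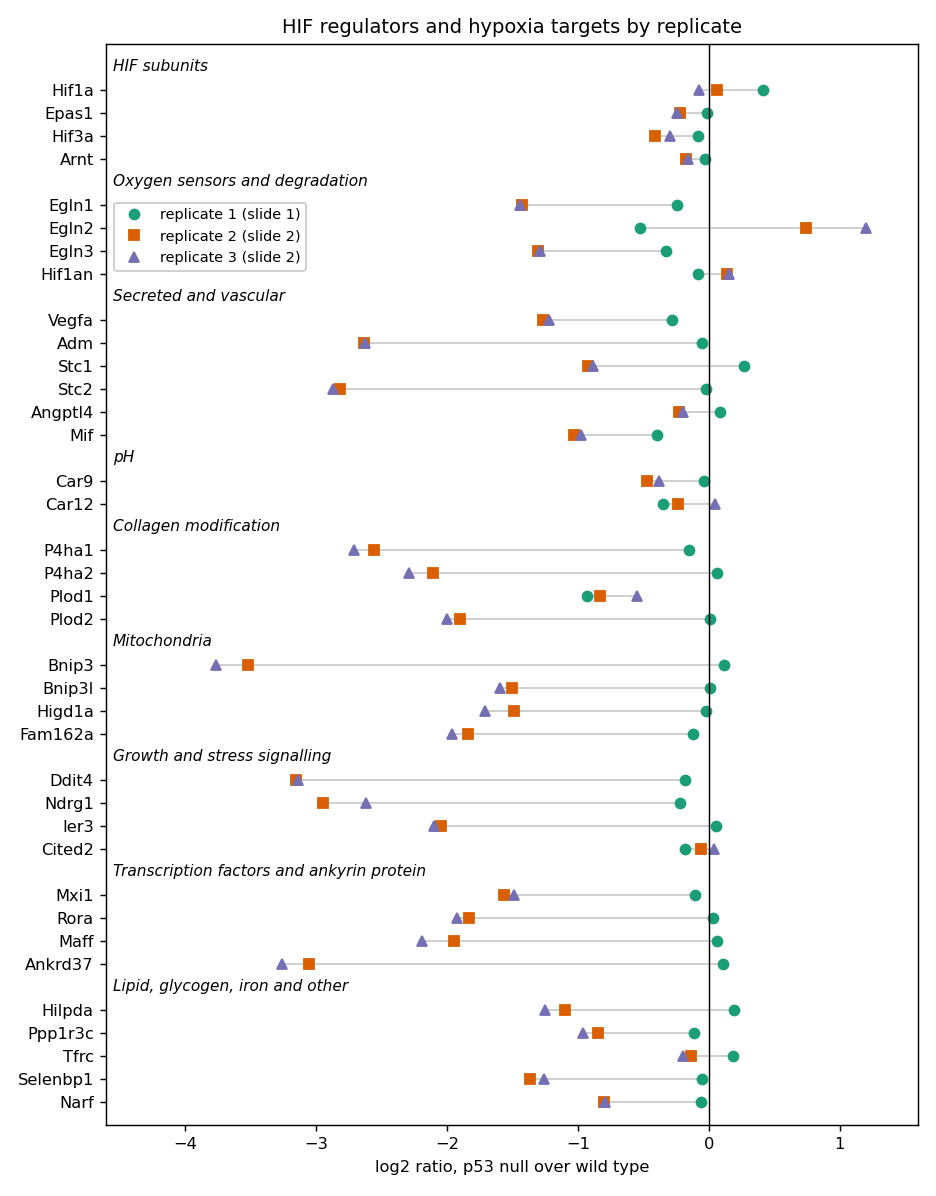
Log2 ratio of p53 null over wild type (horizontal axis) for the 37 tested members, grouped by role; circles are replicate 1 on slide 1, and squares and triangles are replicates 2 and 3 on slide 2. Most targets lie near 0 in replicate 1 and far to the left in replicates 2 and 3, with Bnip3 at −3.52 and −3.77, while the HIF subunits stay within 0.41 of 0 and Egln2 moves the other way.

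The size of the slide 2 values was uncommon on the array. Of the 37 members, 22 had a mean ratio below −1 on slide 2, as did 1.52% of all genes, and 10 had one below −2, as did 34 of all 12000 genes. In replicate 1, 2 members (Plod1 and Egln2) were below −0.5, close to the 4.82% of all genes there, and 0 were above 0.5, as were 0.392% of all genes.

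Slides and replicates differed for many genes. Across 20865 probes the ratios of replicates 2 and 3 correlated at 0.928, whereas those of replicates 1 and 2 correlated at 0.06 and those of replicates 1 and 3 at −0.154. The null channel of an array had between 50.1% and 60.6% of probes over background, and the wild-type channel between 46.9% and 62.8%. Trp53, the gene that encodes p53, had −1.08, −0.47 and −0.45 on its brighter probe (mean −0.67 ± 0.36, SD, n = 3; limma, adjusted p = 0.279), and a second probe averaged 0.16; without the deleted part neither probe checks the genotype fully. Of 12 kidney markers 11 passed the filter, and their median was −0.05 on either slide, but 4 were called lower and 3 higher on slide 2, between −0.74 (Foxd1) and 0.74 (Umod). The numbers that the deposit gives to the hybridised samples are the same for the wild-type side of replicates 2 and 3. In the same dye, the null channels of these replicates differed with an SD of 0.183 and 0.198 (log2) across probes, against 0.136 and 0.141 for the wild-type channels, and repeat arrays of replicate 1 differed by 0.135 to 0.186. With 75th percentile scaling the Cy5 repeats of replicate 1 differed by 0.85 (null) and 0.849 (wild type), so that yardstick depends on the scaling, whereas the channels of replicates 2 and 3 then differed by 0.188 and 0.206 in null and 0.142 and 0.143 in wild type. With the first scaling, repeat null arrays of replicate 1 differed by 0.186 in Cy5 and 0.135 in Cy3. The null channels of replicates 2 and 3 were thus as alike as repeats in Cy5 (0.183) but not in Cy3 (0.198). Whether replicates 2 and 3 share 1 wild-type RNA is not stated in the labels and was not tested. If they do, their agreement is not independent. All p-values that count them as 2 replicates would then be too small, those of the 3-replicate fit included. With 1 value per slide, 4 members had an unadjusted p under 0.05 (2.5% of all probes), in place of 25 (17.1%).

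To show the sequence context of these genes, the promoters of the 3 targets with the lowest mean ratio and of 2 regulators are given below, 5′ to 3′, from RefSeq on GRCm38.p6, running from 250 bases before to 50 after the start of the gene, with ACGTG and GCGTG on either strand in capitals (CACGT and CACGC on the other strand). Bnip3 lies at chr7:138909457-138909756 (minus strand), Ddit4 at chr10:59951721-59952020 (minus strand), Ankrd37 at chr8:45999801-46000100 (minus strand), Hif1a at chr12:73907617-73907916 (plus strand) and Egln3 at chr12:54203825-54204124 (minus strand).
Bnip3: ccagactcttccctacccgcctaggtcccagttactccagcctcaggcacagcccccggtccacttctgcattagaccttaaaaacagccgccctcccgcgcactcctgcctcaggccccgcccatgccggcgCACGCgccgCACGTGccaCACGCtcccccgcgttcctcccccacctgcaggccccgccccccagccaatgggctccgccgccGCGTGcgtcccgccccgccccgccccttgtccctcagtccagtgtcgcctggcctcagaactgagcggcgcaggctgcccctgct
Ddit4: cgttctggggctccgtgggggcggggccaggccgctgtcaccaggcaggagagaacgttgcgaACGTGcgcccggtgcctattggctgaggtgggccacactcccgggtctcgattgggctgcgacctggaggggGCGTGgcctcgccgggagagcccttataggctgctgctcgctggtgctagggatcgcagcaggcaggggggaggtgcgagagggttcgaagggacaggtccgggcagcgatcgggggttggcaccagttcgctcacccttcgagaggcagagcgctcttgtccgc
Ankrd37: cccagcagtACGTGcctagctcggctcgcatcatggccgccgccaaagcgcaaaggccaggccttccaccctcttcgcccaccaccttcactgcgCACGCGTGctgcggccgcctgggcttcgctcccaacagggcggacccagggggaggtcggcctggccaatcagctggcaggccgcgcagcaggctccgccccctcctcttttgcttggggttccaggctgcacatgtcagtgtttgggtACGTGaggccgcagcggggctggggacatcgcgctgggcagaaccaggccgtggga
Hif1a: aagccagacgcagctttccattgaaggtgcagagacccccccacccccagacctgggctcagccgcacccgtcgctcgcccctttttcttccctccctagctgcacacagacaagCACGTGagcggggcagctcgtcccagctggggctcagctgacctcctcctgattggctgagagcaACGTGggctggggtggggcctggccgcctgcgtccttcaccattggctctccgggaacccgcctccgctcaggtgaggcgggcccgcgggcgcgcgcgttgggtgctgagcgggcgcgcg
Egln3: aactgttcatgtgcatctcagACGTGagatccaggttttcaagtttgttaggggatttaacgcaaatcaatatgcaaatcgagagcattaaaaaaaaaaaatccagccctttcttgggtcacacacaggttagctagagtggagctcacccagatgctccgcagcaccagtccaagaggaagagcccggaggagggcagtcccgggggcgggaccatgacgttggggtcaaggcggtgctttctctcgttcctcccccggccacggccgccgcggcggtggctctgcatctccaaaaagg

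All 5 of these windows hold ACGTG, also that of Hif1a, whose transcript did not follow the targets. The table held promoters for 34 of the 41 members, 42 promoters in all, and none for Epas1, Stc1, Angptl4, Plod2, Lox, Bnip3l and Ndrg1. ACGTG stood in 66.7% of the 33 target promoters and in 44.4% of the 9 regulator promoters, against 24.7% of the 12340 promoters of tested genes and 19.6% of all 32851 promoters. GCGTG stood in 66.7% of the target promoters, 55.6% of the regulator promoters, 49.2% of those of tested genes and 32.4% of all. The letters overlap with CACGTG, the E-box of clock and Myc factors, which 16.7% of the member promoters and 9.68% of those of tested genes held. Both cores contain a CpG, and how CpG content bears on these shares was not tested. The median promoter had 22.5 CpG among members (24 for targets and 19 for regulators) and 20 among tested genes. Of the 9 members below −2 on slide 2 that had a promoter in the table, 7 held ACGTG (not Adm and Stc2) and all 9 held ACGTG or GCGTG. Of the other 22 tested members with a promoter, 16 held ACGTG and 20 held either core (not Hif1an and Car12). A match describes the window and shows no binding.

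Among the HIF subunits, Hif1a, the alpha subunit present in most cells, had 0.41, 0.06 and −0.07 in replicates 1, 2 and 3 (mean 0.13 ± 0.25; limma, adjusted p = 0.571). Epas1, the alpha subunit known from endothelium and erythropoietin-producing cells, had −0.01, −0.22 and −0.25. Hif3a, an alpha subunit with forms that restrain the others, had −0.08, −0.41 and −0.30. Arnt, the shared partner, had −0.03, −0.17 and −0.16; a brighter Arnt probe that was above background on slide 1 alone and was not tested had 0.39, −0.09 and −0.15. The 4 subunit ratios lay within 0.41 of 0 in each replicate on their tested probes. Hif3a and Arnt had dim probes, where the offset added to the signals compresses ratios. With an offset of 16 in place of 50, their means were −0.38 and −0.19, in place of −0.26 and −0.12. From the authors' deposited table, which differs in more than the offset, they were −0.60 and −0.37. On slide 2 Epas1, Hif3a and Arnt were called lower, as were 27.1% of all genes, while Hif1a (limma, adjusted p = 0.941) was not. Hif1a was the subunit whose ratio differed between slides by the test (slide 2 minus slide 1 of −0.42, adjusted p = 0.00592).

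The oxygen sensors went separate ways. Egln1, the main prolyl hydroxylase for the alpha subunits, had −0.24, −1.43 and −1.44, and its second tested probe −0.10, −0.84 and −0.99. Egln3, a prolyl hydroxylase strongly induced by low oxygen, had −0.32, −1.31 and −1.29. Both followed the targets and were negative in all 3 replicates. Egln2, the prolyl hydroxylase not known to be hypoxia-induced, had −0.52, 0.74 and 1.2, so its sign turned between slides; the difference was 1.49 (SE 0.14, adjusted p = 1.12e-09). Hif1an, the hydroxylase that blocks coactivator binding, had −0.08, 0.14 and 0.16 on 1 probe and −0.06, −0.12 and −0.13 on its second tested probe, which differ in sign on slide 2, so no direction can be given.

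Secreted and vascular factors held some of the lowest values. Stc2, a secreted stanniocalcin, had −0.02, −2.81 and −2.87, and Adm, the vasodilator peptide adrenomedullin, had −0.06, −2.64 and −2.62. Both were within 4% of equality on slide 1 and at 14.0% and 16.2% of the wild-type level on slide 2. On slide 1 both were dim, at 6.80 and 7.23 in null and 6.82 and 7.29 in wild-type kidneys (normalized log2 intensity). The null levels stayed low on slide 2, and in that range ratios are compressed. With an offset of 16 their means were −2.28 and −2.16, in place of −1.90 and −1.77. From the authors' deposited table, which differs in more than the offset, they were −2.64 and −2.48. Vegfa, the growth factor for blood vessels, had −0.28, −1.27 and −1.22 on its brightest probe, and each of its 3 other tested probes was also negative in all 3 replicates, with slide 2 means between −1.84 and −0.41. Mif, a cytokine, had −0.40, −1.03 and −0.97, negative in all 3 replicates. Stc1, the other stanniocalcin, had 0.27, −0.92 and −0.89 on its brightest probe. Its other tested probes had 0.37, −0.56 and −0.54, and −0.15, −0.46 and −0.34. All were lower in null kidneys in replicates 2 and 3, but they differed in sign in replicate 1. Angptl4, an inhibitor of lipoprotein lipase, moved little, at 0.09, −0.23 and −0.20, yet was called lower on slide 2 (limma, adjusted p = 0.0102).

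The carbonic anhydrases regulate pH at the cell surface. Car9, often used as a marker of hypoxia, had −0.04, −0.47 and −0.38, and Car12 had −0.35, −0.23 and 0.05. Car9 was dim, at a level of 6.61, 6.82 and 6.81 in null and of 6.65, 7.30 and 7.19 in wild-type kidneys (normalized log2 intensity), in the low range where ratios are compressed. With an offset of 16 the mean was −0.50 for Car9, in place of −0.30, and −0.24 for Car12, in place of −0.18. From the authors' deposited table, which differs in more than the offset, the means were −1.03 and −0.39. Car9 was called on slide 2 (adjusted p = 5.66e-06) and Car12 was not (adjusted p = 0.297).

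The enzymes that modify collagen were low on slide 2. P4ha1 and P4ha2, catalytic subunits of collagen prolyl hydroxylase, had −0.15, −2.56 and −2.71 and 0.06, −2.10 and −2.29. A second P4ha1 probe was less extreme, at −0.02, −1.44 and −1.58. Plod2, the lysyl hydroxylase that acts on collagen telopeptides, had 0.01, −1.90 and −2.0. Plod1, the lysyl hydroxylase of the collagen helix, behaved differently: it had −0.93, −0.83 and −0.55 and was lower in null kidneys on 8 of 8 arrays. Its unadjusted p of 0.00147 was the lowest among the members in the limma fit (mean −0.77 ± 0.20, adjusted p = 0.279), and its ratio was not called different between slides (adjusted p = 0.122).

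All 4 mitochondrial members showed the slide 2 pattern. Beside Bnip3, its relative Bnip3l, which clears mitochondria from maturing red cells, had 0.01, −1.50 and −1.60, with a second probe at 0.11, −1.43 and −1.59. Higd1a, a small inner membrane protein tied to the respiratory chain, had −0.02, −1.49 and −1.71, with a second probe at 0.27, −1.27 and −1.55. Fam162a, a mitochondrial protein linked to cell death in hypoxia, had −0.12, −1.84 and −1.96. The order within this group was led by Bnip3, at 8.0% of the wild-type level on slide 2, with the other 3 between 26.7% and 34.2%.

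In growth and stress signalling, Ndrg1, a cytoplasmic protein induced by stress and differentiation, had −0.22, −2.95 and −2.62. Ier3, a regulator of cell survival, had 0.06, −2.05 and −2.10. With Ddit4, 3 of the 4 members of this group were called lower on slide 2, as were 27.1% of all genes. Cited2, which competes with HIF for its coactivators, did not take part: it had −0.18, −0.06 and 0.04, and its 2 other tested probes had slide 2 means of −0.14 and −0.10.

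Among transcription factors, Maff, a small Maf protein, had 0.06, −1.95 and −2.19. Rora, a nuclear receptor of the clock, had 0.03, −1.83 and −1.92, with a second probe at −0.01, −1.26 and −1.32. Mxi1, an antagonist of Myc, had −0.11, −1.56 and −1.49. With Ankrd37 all 4 tested members of this group were called lower on slide 2, as were 27.1% of all genes. Bhlhe41 stayed at background, whereas its relative Bhlhe40, which is not on the list, had −0.13, −3.21 and −3.25.

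The remaining targets were lower by less. Selenbp1, a selenium-binding protein, had −0.05, −1.37 and −1.26. Hilpda, a lipid droplet protein, had 0.19, −1.10 and −1.26, and its second probe 0.20, −1.10 and −1.24. Ppp1r3c, which brings a phosphatase to glycogen, had −0.11, −0.84 and −0.96. In replicate 2 these values lay below the 5th percentile of all genes, which was −0.62. Tfrc, the transferrin receptor, had 0.19, −0.13 and −0.20. Narf, a nuclear protein that binds prelamin A, had −0.06, −0.80 and −0.79 on its brighter probe but 0.14, 0.44 and 0.23 on the other, so the 2 probes disagreed and no direction can be given for the gene. Among the other targets named above, the authors' deposited table also gave larger means for Ier3 (−2.79, in place of −1.36) and Ppp1r3c (−1.51, in place of −0.64). The same held for Stc1 (−0.85, in place of −0.51), Rora (−1.86, in place of −1.24) and Plod1 (−1.04, in place of −0.77).

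Setting the targets against the regulators, the target median minus the regulator median was 0.04, −1.30 and −1.40 in replicates 1, 2 and 3 (mean −0.89 ± 0.80, SD, n = 3). An exact permutation test of the signs over 3 replicates gave p = 0.5 (two-sided), where the design cannot go below 0.25. The difference was near 0 in replicate 1, and its mean was about as large as its SD over the 3 replicates. Counting Egln1 and Egln3 with the targets left the target median at −1.04 and put that of the remaining 6 regulators at −0.02. The ratio was negative for 29 of 29 targets in replicate 2 and for 27 in replicate 3 (not Car12 and Cited2). In replicate 1 there were 17 negative and 12 positive targets. Of all 12000 genes, 6470 were negative in replicate 1 and 5543 had a negative mean on slide 2. The target counts include Narf, whose probes disagree.

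**Figure D2:**
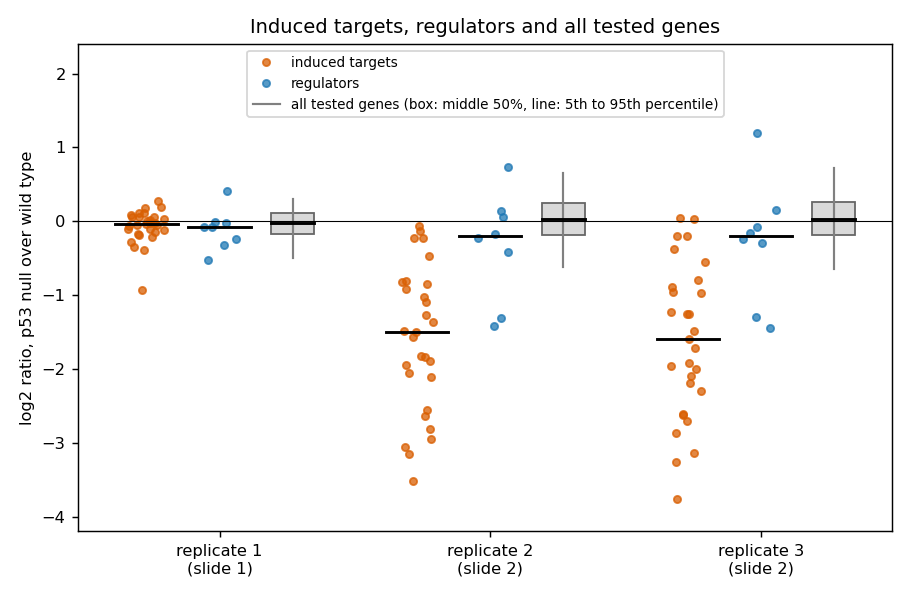
Log2 ratio of p53 null over wild type (vertical axis) in each replicate; points are single genes, black bars are medians, and the grey boxes and lines give the middle 50% and the 5th to 95th percentile of all 12000 tested genes. The target median is −0.04 in replicate 1 and −1.50 and −1.60 in replicates 2 and 3, while the regulator median stays between −0.20 and −0.08.

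A ratio can shift through either genotype, so the normalized log2 level of each genotype was followed over the replicates for the same probe. Bnip3 had a level of 11.0, 11.2 and 11.0 in null kidneys and of 10.9, 14.7 and 14.8 in wild-type kidneys, in replicates 1, 2 and 3. Ddit4 had 13.3, 13.5 and 13.4 in null and 13.5, 16.6 and 16.5 in wild-type kidneys. In both genes the null level hardly moved, while the wild-type level was over 3 units higher on slide 2. Ankrd37 had 9.43, 9.88 and 9.64 in null and 9.33, 12.9 and 12.9 in wild-type kidneys, and Ndrg1 had 9.66, 9.87 and 10.1 in null and 9.88, 12.8 and 12.7 in wild-type kidneys. Vegfa had 10.3, 10.3 and 10.4 in null and 10.6, 11.6 and 11.6 in wild-type kidneys. The wild-type points of replicates 2 and 3 stood above all other points for these 5 genes.

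**Figure D3:**
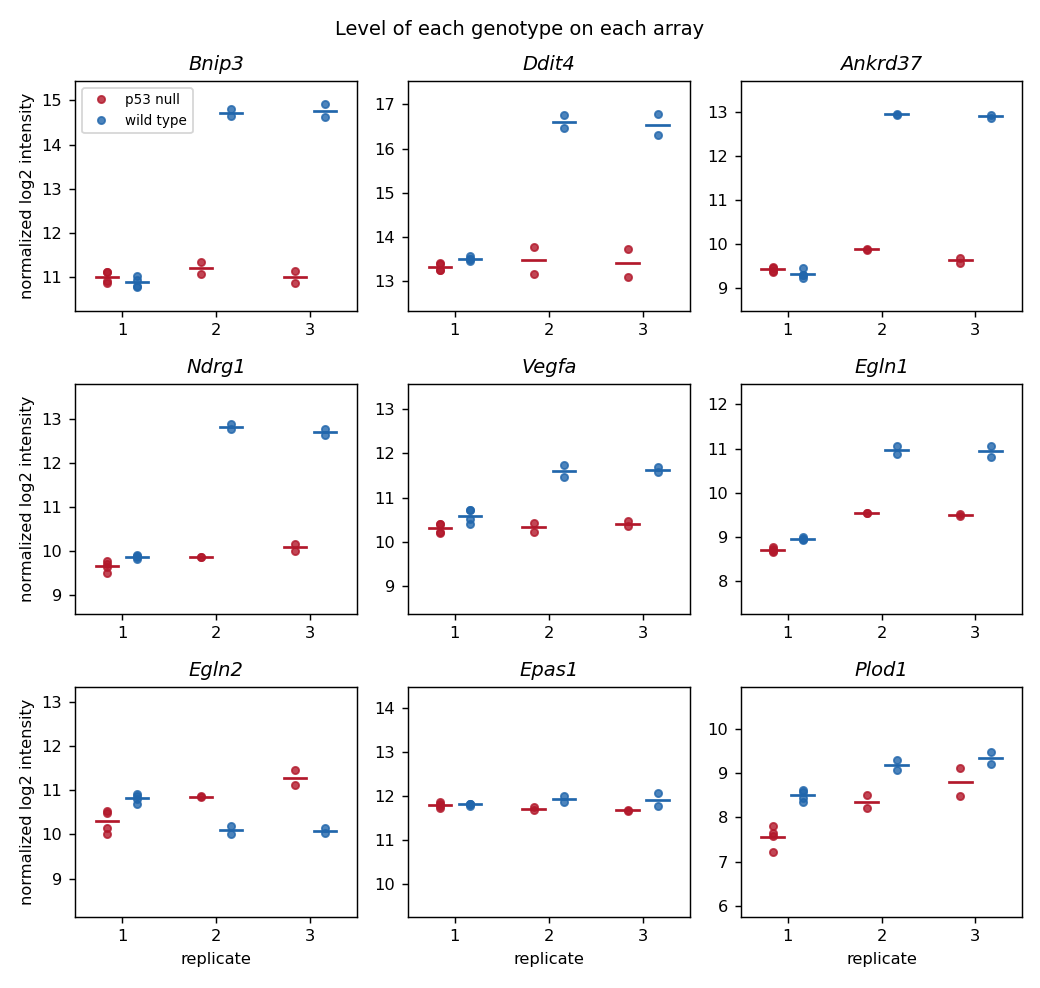
Normalized log2 intensity (vertical axis) of 9 members in each replicate, with p53 null at the left and wild type at the right of each pair; points are arrays and bars are means over the 2 dye orientations. For Bnip3 the null level is 11.0, 11.2 and 11.0 and the wild-type level 10.9, 14.7 and 14.8; each panel spans the same range of intensity.

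Over the 29 targets, the median level on slide 2 minus that on slide 1 was 0.20 in null kidneys, against a median of 0.26 for all genes, and 1.46 in wild-type kidneys, against 0.14 for all genes. A shift above 1 was found for 2 of 29 targets in null kidneys (6.74% of all genes) and for 20 of 29 in wild-type kidneys (7.59% of all genes). The lower ratios of slide 2 thus came with higher wild-type levels there, not with lower null levels, for most targets. The larger shift was in wild-type kidneys for 24 of 29 targets, and in null kidneys for Car12, Cited2, Plod1, Ppp1r3c and Tfrc. The null level was lower on slide 2 by over 0.5 for 6 of 29 targets. Of these, Bnip3l shifted by −0.70 in null and 0.86 in wild-type kidneys, Fam162a by −0.69 and 1.09, P4ha2 by −0.83 and 1.43, and Ier3 by −0.67 and 1.46, so both genotypes moved. Tfrc was lower on slide 2 in both, by −1.25 in null and −0.90 in wild-type kidneys. P4ha1 was higher on slide 2 in both, by 1.07 in null and 3.55 in wild-type kidneys. Plod1 was also higher in both, by 1.01 in null and 0.77 in wild-type kidneys. Ppp1r3c shifted mainly in null kidneys, by −1.0, against −0.20 in wild-type kidneys.

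The regulators shared less of this. Egln1 shifted by 0.81 in null and 2.0 in wild-type kidneys, and Egln3 by 0.29 and 1.27. Egln2 shifted in opposite directions, by 0.77 in null and −0.72 in wild-type kidneys. Hif1a was lower on slide 2 in both genotypes, by −1.38 in null and −0.96 in wild-type kidneys. Levels in a single channel carry any effect of the slide and the scan, which was not removed, and no test was made of them. In RNA from whole organs, fewer cells of a type and less RNA per cell cannot be told apart.

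**Figure D4:**
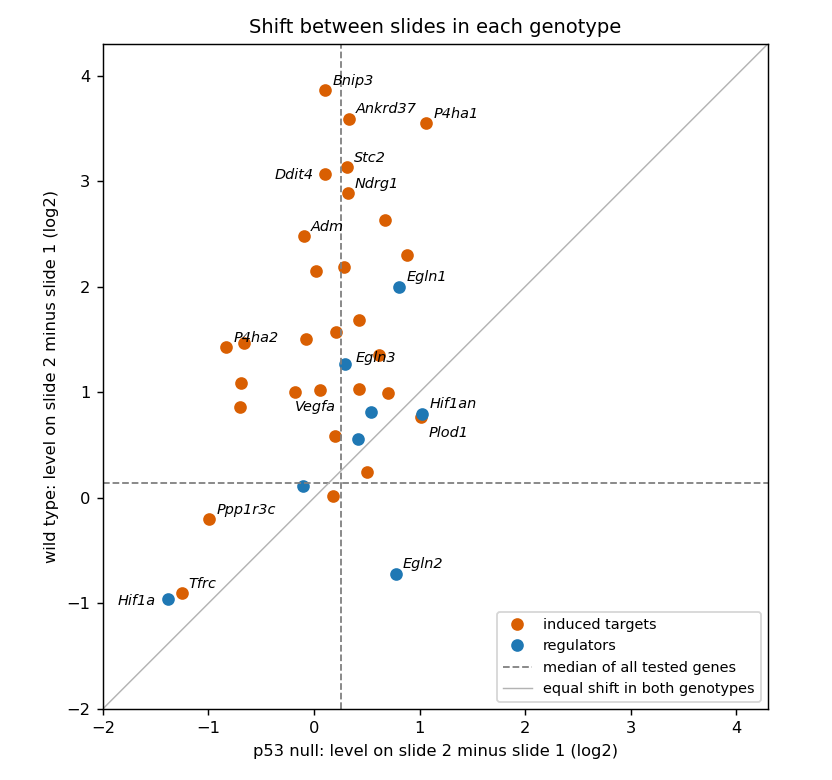
Level on slide 2 minus slide 1 (log2) in p53 null kidneys (horizontal axis) and in wild-type kidneys (vertical axis) for each tested member; dashed lines mark the medians of all tested genes, 0.26 in null and 0.14 in wild type, and the solid line an equal shift in both. Most targets lie near the dashed vertical line and far above the horizontal one, with Bnip3 at 0.10 and 3.86, while Hif1a and Egln2 lie elsewhere.

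Other genes of the oxygen response shared the pattern in part. Of 35 further HIF partners, cofactors and targets 32 were tested; 10 were lower and 0 higher at an unadjusted p under 0.05, where 8.93% of all genes were lower and 9.22% higher. On slide 2, 19 were called lower and 4 higher (Nos3 0.83, Eng 0.69, Elob 0.67 and Eloc 0.37), where 27.1% of all genes were lower and 32.9% higher. Their median was −0.03 in replicate 1 and −0.35 on slide 2. Igfbp1, a binding protein of insulin-like growth factors, had 0.04, −1.79 and −1.93; Ak4, a mitochondrial adenylate kinase, had −0.02, −1.91 and −2.08; and Kdm3a, a histone demethylase, had 0.10, −1.22 and −1.38. Of 18 glycolytic HIF targets all 18 had a negative mean, as did 5904 of all 12000 genes. Their medians were −0.14, −1.90 and −1.75 in the 3 replicates. The ratio was called lower on slide 2 than on slide 1 for 16 of the 18 (19.3% of all genes). Slc2a1, the glucose transporter of most cells, had 0.14, −3.06 and −3.28. Gapdh (−0.73, −1.18 and −0.70) and Hk1 (−0.57, −0.86 and −0.44) were not called different between slides. Both were below −0.5 in replicate 1 already, as were Pkm, Eno1 and Pfkl and 4.82% of all genes.

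Markers of handling and of other cells were counted in the same way, and their part in the values above was not tested. Since 27.1% of all genes were called lower and 32.9% higher on slide 2, calls among a few markers are common in any list. Of 12 immediate early and heat shock genes, 7 were called lower and 3 higher on slide 2, and their median was −0.15 on slide 1 and −0.53 on slide 2. The heat shock genes went both ways: Hspa1a had −0.44, −2.80 and −2.71 and Hspa1b −0.37, −2.18 and −1.88, whereas Dnajb1 had −0.01, 1.07 and 0.92. Of 8 erythroid genes 3 were called lower and 4 higher on slide 2: the embryonic globins Hbb-y (−2.6), Hba-x (−2.03) and Hbb-bh1 (−1.69) were low, and Alas2, Hbb-bt, Slc4a1 and Hba-a1 were high, between 1.1 and 1.81. All 5 macrophage genes tested (of 6 listed) were called higher on slide 2, as were 5 of 7 endothelial genes (1 lower), 3 of 4 liver genes tested (of 6) and 3 of 4 adrenal genes tested (of 7, 1 lower), whereas the medians of these lists in replicate 1 lay between −0.03 and 0.24.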

How the data were processed

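Per the labels' protocols, Cy3 or Cy5 was built directly into cDNA made from total RNA. The authors deposited scanner files with linear intensity for each spot and its local background, and a log ratio which, per the file headers, is log10 of red over green. Those headers name Agilent Feature Extraction 10.5.1.1, whereas version 6.1 stands in the submitters' processing notes. The deposited value table holds the same log10 ratios turned to null over wild type.

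Median signals were corrected with normexp (offset 50, which compresses ratios of dim probes) and loess-normalized with limma 3.58.1 (R 4.3.3). In this step 1639 control spots had weight 0 and were left out, outlier spots were set to missing, and 0 spots were saturated. Spots of a probe were averaged. All log2 values here were computed from the deposited intensities. Arrays were averaged within dye and then within replicate. Of 41174 probes, 25097 were named through their RefSeq accession (GRCm38.p6 names), 20880 were kept and 20865 were tested; 4257 of the tested probes had no name. The design build is mm9, so array coordinates are not given. A gene is its tested probe of highest mean intensity.

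The test was a two-sided limma fit of the 3 replicate values (null hypothesis of 0, 4.22 degrees of freedom, Benjamini-Hochberg over all tested probes, threshold 0.05), with slide 2 alone and slide 2 minus slide 1 as further contrasts. The slide 2 minus slide 1 contrast had 28.9 degrees of freedom, most of them drawn from the spread over all probes. In both further contrasts the spread of a single probe rests on the difference between replicates 2 and 3 alone. Levels are loess-normalized channels scaled between arrays by Aquantile. On simulated data with 20865 probes the 3-replicate test recovered 11, 41, 50 and 50 of 50 probes changed 1.5-, 2-, 4- and 8-fold, with 7 false calls. The slide contrast recovered 42, 50, 50 and 50, with 8 false calls. The simulated replicates were independent, and for the 3-replicate test each change was equal in all 3. Those rates therefore do not cover genes whose ratio differs between slides, as that of most members did. The number of arrays limits the precision. Every member is named, and the tested members have values by replicate. Other tested probes are given where they differ in sign or markedly in size. Members, lists and alternatives were chosen with earlier results of these data known. Backgrounds, offsets, normalizations, filters, dyes, models and replicates were varied.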

Additional observations from a re-analysis of the deposited data

How the results depend on the processing

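The count of called members (0 with all 3 replicates) rested on how the slides were treated. It ran from 0 to 33 when 1 replicate was left out, with 33 without replicate 1 (32 lower and 1 higher, where 56% of all probes were called) and 0 without replicate 2 or 3; it was 23 with all 8 arrays and the replicate as a random effect (5.48% of all probes), 31 with slide as a fixed block (40.9%) and 0 with 1 value per slide. The count at an unadjusted p under 0.05 was 25, where 17.1% of all probes passed. It was 13 without a filter on dim probes (12.8% of all probes) and 4 with 1 value per slide (2.5%). With 1 replicate left out, it was 34 without replicate 1 (60.2%), 3 without replicate 2 (1.39%) and 4 without replicate 3 (3.95%). The regulator median (−0.14) was 0.027 with median centring, −0.27 from the deposited table, −0.056 without a filter and −0.024 with Egln1 and Egln3 counted as targets. With scaling by the 75th percentile, the target shift between slides over that of all genes was 0.046 in null kidneys (−0.058 by Aquantile) and 1.65 in wild-type kidneys (1.32 by Aquantile). Of 555 single-member values under these settings, 454 kept their side of the threshold, 87 passed it and 14 changed sign without passing it; the cause of each was not tested. Fewer samples or fewer values lie behind the settings with 1 replicate left out or 1 value per slide. Slide as a random block could not be fitted, and the slide contrast has no residual degrees of freedom without replicate 2 or 3, so neither was run.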
